A study of Mus musculus with 15 samples.

Results

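The genes described are 9 transcripts of the neuromuscular junction and of the response of muscle to loss of its nerve, namely the acetylcholine receptor subunit genes Chrna1, Chrnb1, Chrnd, Chrne and Chrng, the receptor kinase gene Musk, the transcription factor genes Myog and Runx1, and the adhesion molecule gene Ncam1. They were chosen by name and looked up by Ensembl identifier in each of the 15 count tables, and all 9 were found among 39179 identifiers. The samples are muscle from C57BL/6 mice, stated in the study's methods to be quadriceps, that were either wild-type or homozygous for the V338Y exchange in Mrps5, a protein of the small subunit of the mitochondrial ribosome. The substitution was built to make mitochondrial translation error-prone, is present in every cell and at every age, and is called V338Y below. At 3 mo each genotype had 4 mice, and at 19 mo there were 3 wild-type mice and 4 V338Y mice, with 1 library per mouse. No other treatment or allele was named.

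The junction is the contact at which a motor neuron releases acetylcholine onto a muscle fiber. The receptor is a pentamer that opens a cation channel. Its fetal form carries the gamma subunit, encoded by Chrng, and its adult form carries the epsilon subunit, encoded by Chrne, in its place, while the alpha, beta and delta subunits are common to both. Nerve-derived agrin binds the co-receptor Lrp4, which activates the kinase MuSK and gathers receptors under the nerve terminal. When a muscle loses its nerve, electrical activity no longer holds back these genes along the fiber, the myogenic factor myogenin, encoded by Myog, rises, and the genes for the fetal receptor, MuSK, Runx1 and the adhesion molecule NCAM are switched on outside the synapse.

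The libraries held between 8250653 and 18968132 counts. Levels are given as CPM, a gene's counts per a fixed number of counts in the library, after scaling by the trimmed mean of M-values (TMM). The 12 muscle fiber markers summed to between 170600 and 328700 CPM in each mouse, and none of them was at 0 in any group. The V338Y label could not be checked from these counts, since a single amino acid exchange need not alter the transcript level, and Mrps5 stood between 14.96 and 27.55 CPM in all libraries. The study's methods call the 3 mo mice and the 19 mo wild-type mice female. The libraries of the 2 ages nevertheless differed in sex-linked transcripts. The Y-linked gene Ddx3y stood between 163 and 202 CPM in all 3 mo mice and at or below 0.0827 CPM in all 19 mo mice. Xist, the transcript of the inactive X chromosome, stood at or below 0.575 CPM in all 3 mo mice and between 506 and 631 CPM in all 19 mo mice. Age and sex can therefore not be told apart in any age comparison below, while both genotypes of each age carried the same sex-linked transcripts.

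On build GRCm38 the receptor genes lie on 3 chromosomes. Chrnd (chr1:87190607-87200070) and Chrng (chr1:87204657-87212694) are neighbours on the plus strand, Chrnb1 (chr11:69784036-69795943) and Chrne (chr11:70614883-70619216) share the minus strand of another chromosome, and Chrna1 is at chr2:73563215-73580338. Musk is at chr4:58285960-58374303, Myog at chr1:134289989-134292548, Runx1 at chr16:92601466-92826149 and Ncam1 at chr9:49502136-49798925. All 9 are protein-coding, and the counts cover their exons. Runx1 and Ncam1 share 106 and 417 exon bases with genes on the other strand, whose own levels were at or near 0.

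Per length of the annotated exons, Musk was the most abundant of the 9 transcripts at 3 mo, with 11.01 ± 0.701 CPM per kb (SD, n = 4) in wild-type and 11.4 ± 2.09 CPM per kb (n = 4) in V338Y mice. In each group at that age the lowest Musk value lay above the highest value of the next gene. Chrnb1 and Chrne came next in wild-type mice, at 4.99 ± 0.619 and 4.64 ± 0.617 CPM per kb, and their ranges overlapped. Myog followed with 2.76 ± 1.30 CPM per kb and Chrna1 with 1.75 ± 0.280 CPM per kb. Ncam1, Runx1 and Chrnd had means below 0.5 CPM per kb in both 3 mo groups with overlapping ranges, and Chrng was last. At 19 mo the order had a different head. Chrnb1 led with 9.75 ± 1.09 CPM per kb (n = 3) in wild-type mice, where Musk came next at 6.04 ± 0.0724 CPM per kb. In 19 mo V338Y mice the ranges of Chrnb1, Myog and Musk overlapped, with means of 9.742, 7.405 and 6.573 CPM per kb (n = 4). Chrng was last in all 4 groups.

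**Figure D1:**
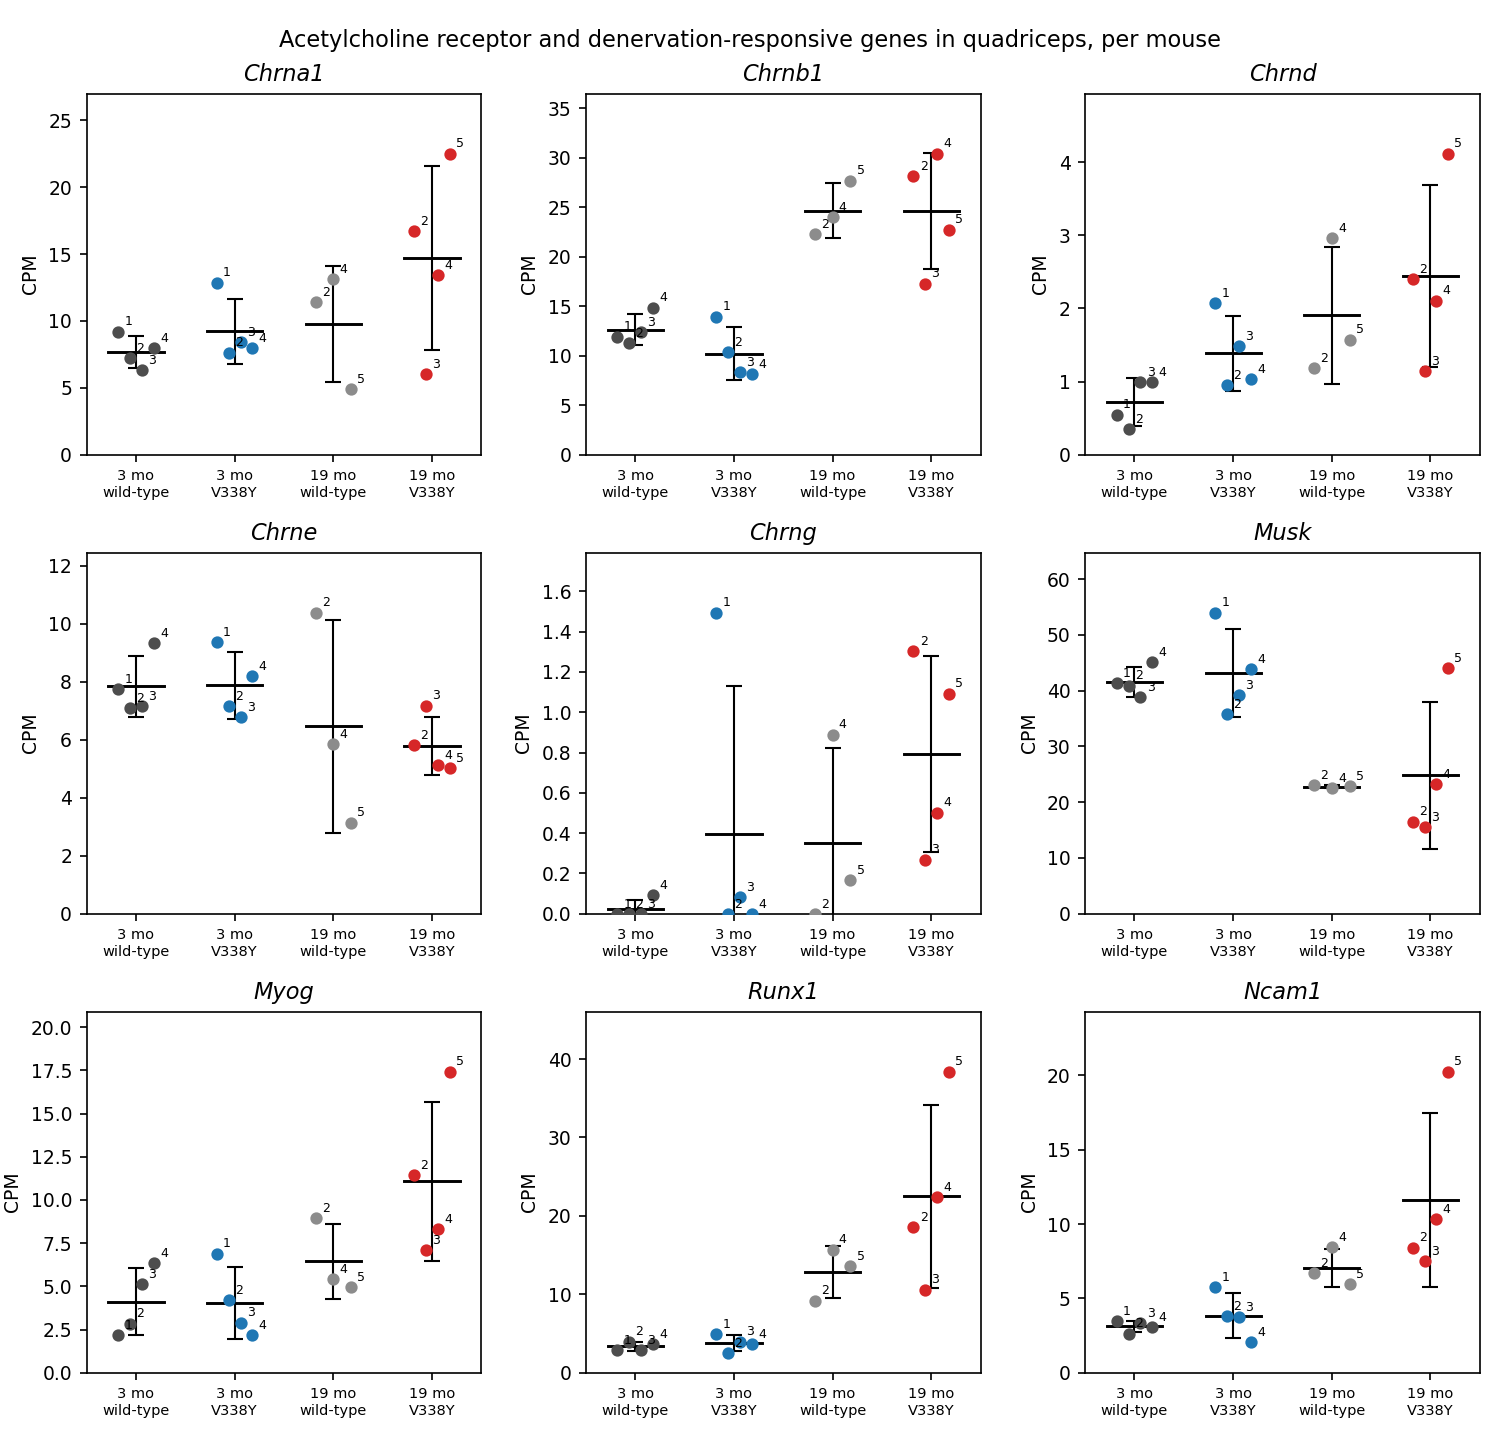
Level of each gene in CPM (vertical axes, linear and starting at 0) in each mouse of the 4 groups, with the mouse number beside each point, the mean as a horizontal bar and the SD as a vertical bar (cut off at 0 for Chrng). Runx1 and Chrnb1 at 19 mo lie above every 3 mo value, Musk is lower at 19 mo in all mice except V338Y mouse 5, and mouse 1 of the 3 mo V338Y group is the highest of its group in all 9 panels.

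The 4 receptor subunit genes with a promoter window in the RefSeq table are shown with the 250 bases before the start that RefSeq gives them, because the letters to which myogenic and synaptic factors are known to bind can be read there. Myogenin and its relatives bind the E-box, CANNTG, of which CAGCTG is a common form, and factors of the Ets family that act at the synapse bind the N-box, CCGGAA. Windows were on build GRCm38.p6, at chr2:73580339-73580588 (minus strand) for Chrna1, chr11:69795938-69796187 (minus strand) for Chrnb1, chr11:70619195-70619444 (minus strand) for Chrne and chr1:87205561-87205810 (plus strand) for Chrng. They are written 5′ to 3′ along the gene in lower case, with E-boxes and N-boxes in capitals.
Chrna1: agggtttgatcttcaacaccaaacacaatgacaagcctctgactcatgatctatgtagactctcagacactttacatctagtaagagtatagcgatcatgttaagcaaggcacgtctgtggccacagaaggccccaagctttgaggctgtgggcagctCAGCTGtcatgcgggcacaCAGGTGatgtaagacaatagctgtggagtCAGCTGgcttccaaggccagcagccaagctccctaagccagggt
Chrnb1: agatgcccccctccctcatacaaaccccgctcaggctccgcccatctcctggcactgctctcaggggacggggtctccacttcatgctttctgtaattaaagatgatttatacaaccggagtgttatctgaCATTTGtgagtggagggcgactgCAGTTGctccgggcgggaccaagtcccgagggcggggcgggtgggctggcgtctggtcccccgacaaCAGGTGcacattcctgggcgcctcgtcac
Chrne: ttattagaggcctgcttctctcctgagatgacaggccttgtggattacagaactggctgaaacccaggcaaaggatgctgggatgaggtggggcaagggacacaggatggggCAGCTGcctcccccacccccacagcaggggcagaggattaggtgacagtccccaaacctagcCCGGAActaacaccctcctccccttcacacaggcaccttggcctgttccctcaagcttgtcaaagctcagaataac
Chrng: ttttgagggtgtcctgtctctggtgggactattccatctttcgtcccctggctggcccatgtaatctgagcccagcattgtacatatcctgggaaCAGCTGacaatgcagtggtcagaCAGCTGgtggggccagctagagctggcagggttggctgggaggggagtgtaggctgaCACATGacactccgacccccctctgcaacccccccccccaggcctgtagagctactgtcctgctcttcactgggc
Both motifs were searched on both strands, and no E-box overlapped an N-box. Chrna1 held 3 E-boxes, 2 of them CAGCTG, of which the nearest began 44 bases before the start. Chrng also held 3 E-boxes with 2 of the CAGCTG form, and Chrnb1 held 3 of other forms. Chrne held 1 E-box, CAGCTG, 138 bases before the start and was the 1 subunit gene of these with an N-box, 76 bases before it. Of the further genes, Musk held 3 E-boxes and Myog 2. Runx1 had 2 start sites in the table, with 3 E-boxes before the upstream start and 1 N-box before the other. An E-box of any form stood in 66.2% of all 32851 windows of this length, CAGCTG in 13% and the N-box in 12%, so that the general E-box is no mark of these genes. Chrnd and Ncam1 were not in the table. These starts can differ from the ends of the gene spans given above. The Chrng window lies wholly inside its gene span, and those of Chrne, Chrnb1, Musk, Myog and Runx1 overlap theirs in part or, for the inner Runx1 start, wholly. A match is a run of letters and not a site shown to be bound.

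The first comparison set V338Y mice against wild-type mice at 3 mo of age. None of the 8 that passed the count filter differed in edgeR's quasi-likelihood test at an adjusted p under 0.05, where 0.075% of all 13333 genes tested did. The median log2 fold change of these 8 genes was 0.12, against -0.00 over all genes. Chrnd, the delta subunit shared by both receptor forms, had the smallest p. It stood at 0.547, 0.355, 0.995 and 0.998 CPM in wild-type mice 1 to 4 and at 2.07, 0.953, 1.49 and 1.04 CPM in V338Y mice 1 to 4. Of the V338Y mice, 3 lay above the highest wild-type mouse, yet the counts behind these values numbered only 5 to 36 per mouse. The log2 fold change was 0.98 ± 0.38 (SE), with an unadjusted p of 0.0262 and an adjusted p of 0.469. DESeq2 called none of the 8 either, and under it as well 1 of them had an unadjusted p under 0.05.

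At this age the other subunit and synaptic genes had 95% intervals that included 0. For Chrne the log2 fold change was 0.02 with a 95% interval of -0.33 to 0.37, and for Musk it was 0.06 with an interval of -0.23 to 0.36. Chrnb1 was at 10.2 ± 2.69 CPM in V338Y and 12.6 ± 1.57 CPM in wild-type mice (SD, n = 4 each), a log2 fold change of -0.28 (interval -0.69 to 0.13). The intervals for Myog (-0.92 to 0.96), Ncam1 (-0.30 to 0.97) and Runx1 (-0.35 to 0.72) still allowed changes of some size in either direction. The direction for Chrne and Myog, and for Musk without V338Y mouse 1, depended on single mice.

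Chrng, the fetal subunit, was too low for the fit at 3 mo. It had 0, 0, 0 and 1 counts in wild-type mice 1 to 4, and 26, 0, 1 and 0 counts in V338Y mice 1 to 4. The signal at this age came almost wholly from V338Y mouse 1, at 1.49 CPM. A library with no count could have held up to 0.346 CPM, the level of 3 counts in the shallowest of these libraries, and this limit covers counting error only. In an exact permutation test over mice (two-sided), the difference of 0.49 in mean log2(CPM + 0.5) had p = 0.714, where the smallest p that 4 against 4 mice can give is 0.0286.

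The same contrast at 19 mo also gave no call. None of the 9 genes differed, against 0.0434% of all 13833 genes tested. The log2 fold change was nevertheless above 0 for 8 of the 9, all but Chrne, though for Chrnb1 it was only 0.03. Chrng, among the 8, passed the count filter only through the V338Y group, so its direction came with its entry into the test. The share of all genes above 0 was not counted. The median log2 fold change was 0.61 against 0.01 over all genes. Without V338Y mouse 5, Chrnd (-0.007) and Musk (-0.277) were below 0 too. The 9 genes varied together across mice (median r of 0.50 within groups), so their directions are not separate counts. Markers of some other cell types lay above 0 as well at this age, with 14 of 14 tested leukocyte markers (median 1.73), 11 of 11 Schwann cell markers (0.48) and 7 of 7 adipocyte markers (1.202). Of the leukocyte and Schwann cell markers, only 9 each were tested in wild-type mice with age. Some of both lists therefore passed the filter here only through the V338Y group. Tendon and fibroblast markers were above 0 for 6 of 7 each (0.206 and 0.155) and mast cell markers for 4 of 6 (0.112). Satellite cell markers were above 0 for 4 of 8 (-0.007) and muscle fiber markers for 5 of 12 (-0.231). None of these markers was called in edgeR's test. With the block the leukocyte genes Ptprc, Ltf and Ngp were called, and DESeq2 called Ptprc. Of the further denervation-responsive genes described below, 14 of 30 were above 0, with a median of -0.02. The part of these cells in the shift was not tested. With the mouse number as a block, a term that compares mice with the same number, 110 genes in place of 6 were called, and still none of the 9. The smallest adjusted p among them under the block was 0.0523 for Runx1, with a log2 fold change of 1.05 ± 0.18. V338Y mouse 3 has no wild-type mouse of its number, so it adds nothing to the genotype estimate under the block. This mouse was the lowest of its group for 8 of the 9 genes, and its share of lowest values over all genes was not counted.

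The smallest unadjusted p at this age were those of both transcription factors and the adhesion molecule. Myog was at 8.95, 5.41 and 4.96 CPM in wild-type mice 2, 4 and 5, and at 11.4, 7.11, 8.33 and 17.4 CPM in V338Y mice 2 to 5. The groups overlapped, with 2 V338Y mice above every wild-type mouse. Its log2 fold change was 0.81 ± 0.34, with an unadjusted p of 0.0446 and an adjusted p of 0.557. Runx1, a factor that protects fibers without nerve input from wasting, differed by 0.84 ± 0.40 (adjusted p = 0.568) and Ncam1 by 0.76 ± 0.35 (adjusted p = 0.563). DESeq2 gave 3 of the 9 genes an unadjusted p under 0.05 and called none. Leaving out V338Y mouse 5 brought these 3 to their lowest values, 0.49 for Myog, 0.45 for Runx1 and 0.34 for Ncam1, while the adjusted p over all such fits was at or above 0.284.

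Among the receptor subunits at 19 mo, Chrnb1 had the same mean in both genotypes, 24.7 ± 2.76 CPM in wild-type (n = 3) and 24.7 ± 5.86 CPM in V338Y mice (n = 4). The 95% interval of its log2 fold change was -0.49 to 0.54. Chrna1 differed by 0.61 ± 0.45 and Chrnd by 0.40 ± 0.48 on the log2 scale. Chrng had counts in all 4 V338Y mice, 13, 4, 5 and 17, and in 2 of 3 wild-type mice, 0, 12 and 2, with a log2 fold change of 1.196 ± 0.941 (adjusted p = 0.718). The mouse without a count could have held up to 0.187 CPM.

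**Figure D2:**
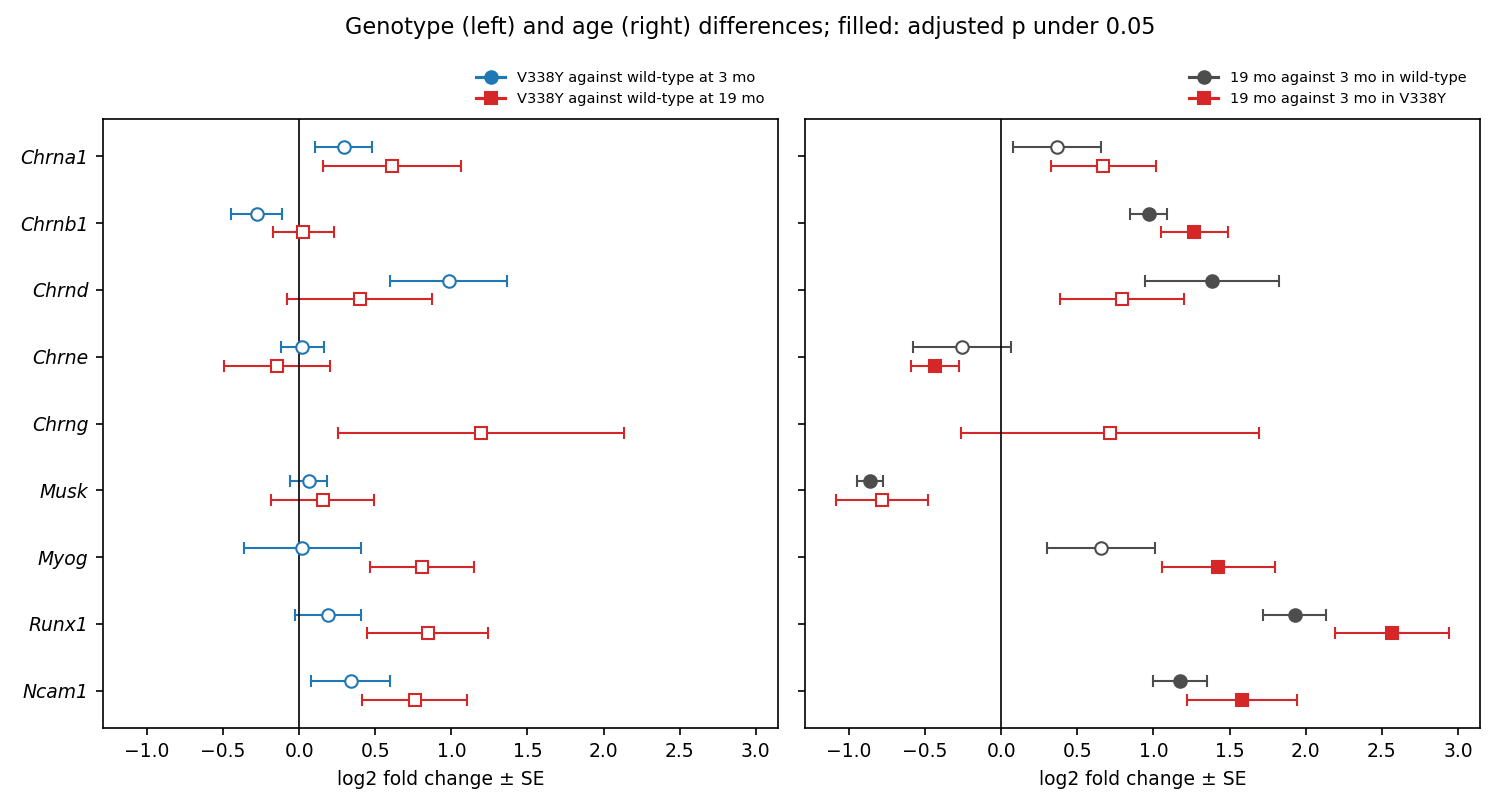
Log2 fold change of each gene with its SE (horizontal axes) between genotypes at each age on the left and between ages in each genotype on the right, with filled symbols for an adjusted p under 0.05 in edgeR's test. No symbol on the left is filled, and Chrng is absent where it did not pass the count filter. On the right Runx1 lies farthest from 0, at 1.93 in wild-type and 2.57 in V338Y mice.

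The age comparisons, in which sex cannot be told apart from age, moved several of these genes in both genotypes. In wild-type mice 5 of the 8 genes tested differed. Runx1, Chrnd, Ncam1 and Chrnb1 rose, where 18.3% of all 13657 genes tested rose, and Musk fell, where 17.8% fell. In V338Y mice 5 of 9 differed. Runx1, Myog, Ncam1 and Chrnb1 rose, where 24.4% of 13868 genes tested rose, and Chrne fell, where 22.5% fell. The median log2 fold change of the tested genes was 0.81 in wild-type (0.02 over all genes) and 0.79 in V338Y mice (0.07 over all genes). Since these are bulk samples, a change in the number of nuclei or fibers that express a gene and a change in transcript per nucleus cannot be told apart.

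Chrnb1, whose product is common to both receptor forms, rose in both genotypes. In wild-type mice it was at 11.9, 11.3, 12.4 and 14.9 CPM in the 4 mice at 3 mo and at 22.3, 24 and 27.7 CPM in the 3 mice at 19 mo. In V338Y mice it was at 13.97, 10.4, 8.36 and 8.18 CPM at 3 mo and at 28.15, 17.3, 30.4 and 22.8 CPM at 19 mo. The ages did not overlap in either genotype. The level rose 1.96-fold in wild-type (log2 fold change 0.97 ± 0.12, adjusted p = 0.000686) and 2.41-fold in V338Y mice (1.27 ± 0.22, adjusted p = 0.0015), and both calls held with each mouse left out in turn.

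Chrna1, the subunit that carries most of the acetylcholine binding site, spread widely at 19 mo. Wild-type mice 2, 4 and 5 stood at 11.4, 13.1 and 4.88 CPM, against 6.30 to 9.21 CPM at 3 mo. V338Y mice 2 to 5 stood at 16.7, 6.04, 13.4 and 22.5 CPM, against 7.62 to 12.9 CPM at 3 mo. In each genotype 1 mouse at 19 mo, wild-type mouse 5 and V338Y mouse 3, lay below every 3 mo mouse of its genotype while all others lay above them. The log2 fold changes were 0.37 ± 0.29 (adjusted p = 0.347) and 0.67 ± 0.34 (adjusted p = 0.135). Without wild-type mouse 5 the first became 0.67 (adjusted p = 0.0168), and without V338Y mouse 3 the second became 0.92 (adjusted p = 0.00971).

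Chrnd was the scarcest subunit after Chrng. In wild-type mice it rose from 0.355 to 0.998 CPM at 3 mo to 1.18, 2.96 and 1.57 CPM at 19 mo, with no overlap, a log2 fold change of 1.38 ± 0.44 and an adjusted p of 0.036. That call was lost in 4 of the 7 fits that left out 1 mouse, with the highest adjusted p, 0.175, without 19 mo mouse 4. In V338Y mice it was at 0.953 to 2.07 CPM at 3 mo and at 2.404, 1.14, 2.11 and 4.11 CPM at 19 mo, a log2 fold change of 0.79 ± 0.41 (adjusted p = 0.134). Without 19 mo V338Y mouse 3 it was 1.03 with an adjusted p of 0.0393.

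Chrne, the adult subunit, did not rise with the other subunits. In wild-type mice it was at 7.10 to 9.34 CPM at 3 mo and at 10.4, 5.85 and 3.14 CPM at 19 mo, so that the highest and the lowest value of all 15 mice both came from this group. The log2 fold change was -0.26 ± 0.32 (adjusted p = 0.56). It became -0.79 with an adjusted p of 0.0405 without 19 mo mouse 2, and 0.06 without 19 mo mouse 5. In V338Y mice Chrne was at 9.37, 7.15, 6.78 and 8.18 CPM at 3 mo and at 5.81, 7.18, 5.12 and 5.01 CPM at 19 mo. The ages overlapped, and the level fell by 0.43 ± 0.16 on the log2 scale (adjusted p = 0.0478). That call sat at the threshold and was lost with DESeq2 (adjusted p = 0.0614), with the block (0.3) and in 6 of the 8 fits that left out 1 mouse, up to 0.13 without 3 mo mouse 1.

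Chrng was listed at 0 to 1 counts in 7 of the 8 mice at 3 mo and had at least 2 counts in 6 of the 7 mice at 19 mo. At 19 mo its highest levels were 0.889 CPM in wild-type mouse 4 and 1.30 and 1.09 CPM in V338Y mice 2 and 5, all below the 1.49 CPM of 3 mo V338Y mouse 1. In wild-type mice it did not pass the filter, and the exact permutation test gave a difference of 0.57 in mean log2(CPM + 0.5) with p = 0.143 (two-sided, smallest possible 0.0286). In V338Y mice, where it passed the filter only through the 19 mo group, the log2 fold change was 0.72 ± 0.98 (adjusted p = 0.567). Without 3 mo mouse 1 it was 4.23 with an adjusted p of 0.0115, a fit in which the 3 remaining mice at 3 mo held 1 count in all, so that its size rests on the prior count and not on a measured level.

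The balance of the subunits within each mouse, which does not depend on the scaling between libraries, was described as the log2 ratio of counts to Chrne. For Chrnb1 it lay between 0.00 and 0.79 in all 3 mo mice and between 1.10 and 3.12 in all 19 mo mice. Its mean was 0.69 ± 0.07 (SD, n = 4) and 2.08 ± 1.01 (n = 3) in wild-type, and 0.35 ± 0.27 (n = 4) and 2.07 ± 0.56 (n = 4) in V338Y mice. Per exon length, Chrnb1 stood at 0.668 to 1.15 times Chrne at 3 mo and at 1.43 to 5.82 times Chrne at 19 mo. The other ratios had higher means at 19 mo too but overlapped between ages. For Chrna1 the means were -0.03 and 0.64 in wild-type and 0.206 and 1.204 in V338Y mice. For Chrnd they were -3.47 and -1.69 in wild-type and -2.52 and -1.35 in V338Y mice. Fetal Chrng reached at most 0.0937 times Chrne per exon length, in a 19 mo V338Y mouse. No test was made on the ratios.

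**Figure D3:**
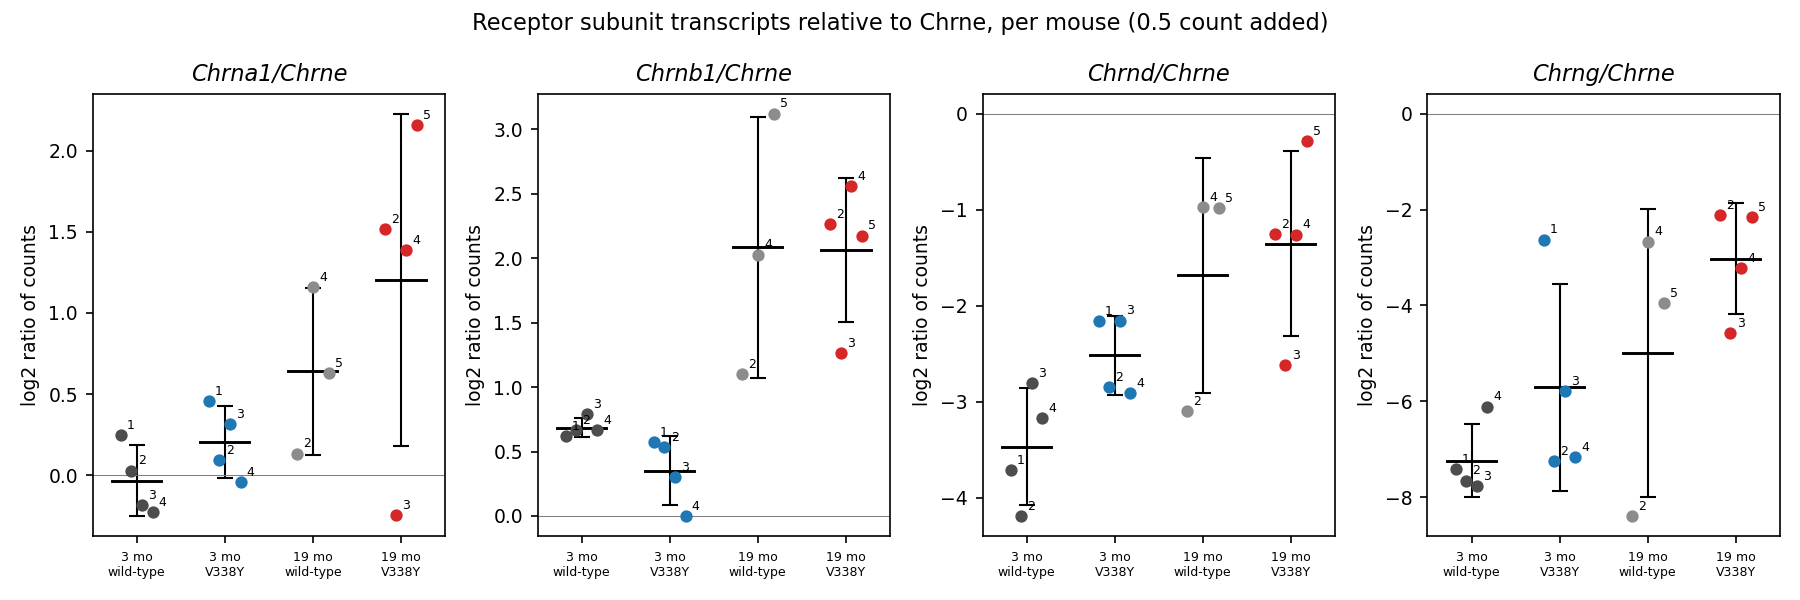
Log2 ratio of the counts of 4 receptor subunit genes to those of Chrne (vertical axes, 0.5 count added to each) in each mouse of the 4 groups, with means as horizontal and SDs as vertical bars. Chrnb1/Chrne lies at or below 0.79 in every 3 mo mouse and at or above 1.10 in every 19 mo mouse, and the other 3 ratios overlap between ages.

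Musk, the kinase that gathers receptors at the synapse, was lower at 19 mo. Wild-type mice stood at 41.4, 40.9, 38.8 and 45.2 CPM at 3 mo and at 23.1, 22.5 and 22.8 CPM at 19 mo. The SD of the 3 old wild-type mice was 0.273 CPM. The level fell to 0.55 times the younger value (log2 fold change -0.86 ± 0.09, adjusted p = 0.000244), and the call held with each mouse left out. V338Y mice stood at 54.0, 35.8, 39.1 and 43.8 CPM at 3 mo and at 16.5, 15.5, 23.3 and 44.0 CPM at 19 mo. Mouse 5 lay among the 3 mo values and the other 3 below all of them. The log2 fold change was -0.78 ± 0.30 (adjusted p = 0.0572). Without mouse 5 it was -1.21 (adjusted p = 0.000689), and it was called in all 15 mice fitted together (adjusted p = 0.0149) and by DESeq2 (0.0205). It was not called with RLE (0.0532) or upper-quartile scaling (0.0549). Of the 8 fits that left out 1 mouse, only that without mouse 5 called it, with adjusted p up to 0.135 in the others.

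Myog, the activator of the receptor genes, rose in V338Y mice. There it was at 6.90, 4.19, 2.90 and 2.19 CPM at 3 mo and at 11.4, 7.11, 8.33 and 17.4 CPM at 19 mo, with no overlap. The change was 2.69-fold (log2 fold change 1.43 ± 0.37, adjusted p = 0.0111), and the call held with each mouse left out. In wild-type mice the values were 2.19, 2.84, 5.11 and 6.35 CPM at 3 mo and 8.95, 5.41 and 4.96 CPM at 19 mo. These ranges overlapped, and the log2 fold change was 0.65 ± 0.36 (adjusted p = 0.177). Set against each other, the age changes of the genotypes differed by 0.76 ± 0.57 on the log2 scale, which did not pass its own test (adjusted p = 0.686).

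Runx1 had the greatest fitted age difference of the 8 genes tested in wild-type mice, where Chrng was not tested, and of the 9 tested in V338Y mice. Chrng exceeded it in V338Y mice when 3 mo mouse 1 was left out, with a log2 fold change of 4.23 in place of 0.72. Chrng also did so with the block, to which that mouse adds nothing. Wild-type mice stood at 2.92, 3.97, 2.92 and 3.63 CPM at 3 mo and at 9.20, 15.7 and 13.6 CPM at 19 mo, a 3.81-fold rise (log2 fold change 1.93 ± 0.21, adjusted p = 0.000333). V338Y mice stood at 4.94, 2.48, 3.97 and 3.69 CPM at 3 mo and at 18.5, 10.6, 22.4 and 38.4 CPM at 19 mo, a 5.93-fold rise (2.57 ± 0.38, adjusted p = 0.00066). No old mouse overlapped with a young mouse of either genotype, and both calls held with each mouse left out. Runx1 is also expressed by blood cells. The 21 leukocyte markers summed to 109 to 169 CPM at 3 mo, to 177 to 186 CPM in 19 mo wild-type and to 232 to 690 CPM in 19 mo V338Y mice. Without 5 neutrophil genes, which made up most of the highest sum and were set apart after the values were seen, the ranges were 107 to 167.5, 172 to 183 and 173.5 to 256 CPM. Of the full list, 12 of the 14 that could be tested rose with age in V338Y mice and 4 of 9 in wild-type mice. Only 9 of the list were tested between genotypes at 3 mo, so some of the 14 passed the filter only through the 19 mo mice. The part of these cells in the Runx1 values was not tested.

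Ncam1, which marks fibers without nerve contact, synaptic membrane, satellite cells and some Schwann cells, rose in both genotypes. Wild-type mice stood at 3.46, 2.63, 3.32 and 3.08 CPM at 3 mo and at 6.71, 8.45 and 5.96 CPM at 19 mo. V338Y mice stood at 5.75, 3.81, 3.72 and 2.08 CPM at 3 mo and at 8.41, 7.51, 10.3 and 20.2 CPM at 19 mo. The ages did not overlap in either genotype, with a 2.26-fold rise in wild-type (log2 fold change 1.18 ± 0.18, adjusted p = 0.00157) and a 2.99-fold rise in V338Y mice (1.58 ± 0.36, adjusted p = 0.00618). The 14 Schwann cell markers summed to 47.6 to 65.6 CPM at 3 mo, to 67.9 to 85.8 CPM in 19 mo wild-type and to 74.8 to 138 CPM in 19 mo V338Y mice. Of those tested, 4 of 9 rose in wild-type and 9 of 11 in V338Y mice. At 3 mo only 9 were tested between genotypes, so some of the 11 passed the filter only through the 19 mo mice. Of the satellite cell markers, Des is also a gene of the fibers themselves and made up most of the sum. The other 8 summed to 110 to 135 CPM at 3 mo and 139 to 161 CPM at 19 mo. Itga7 (45.4 to 74.4 CPM over all mice) and Sdc4 (25.5 to 66.0 CPM) made up most of that sum. Calcr, at low levels, went the other way, with 0.331 to 0.781 CPM at 3 mo and 0.0741 to 0.335 CPM at 19 mo. Of the 8 markers tested, Des included, Heyl, Itga7 and Sdc4 rose in wild-type mice, by 0.60, 0.37 and 0.36 on the log2 scale. Sdc4 also rose in V338Y mice, by 0.61, and Myf5 fell by 0.99. Pax7, the defining marker, had an age difference of -0.06 ± 0.31 in wild-type and 0.00 ± 0.45 in V338Y mice. These genes were named after their values were seen. The part of either cell type in the Ncam1 values was not tested.

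The age change was then compared between the genotypes in 1 fit of all 15 mice. None of the 9 genes had a different age change in V338Y mice, as was the case for 0.0% of all 14128 genes. At an unadjusted p under 0.05 edgeR gave 1361 genes and none of the 9, and DESeq2 called 26 genes and none of the 9. The smallest p was that of Chrng (0.193, adjusted p = 0.676), with an estimate of -2.88 ± 2.11 that became 0.69 without 3 mo V338Y mouse 1. For Runx1 the extra change in V338Y mice was 0.63 ± 0.48 with a 95% interval of -0.44 to 1.69, and for Chrnb1 it was 0.28 ± 0.27 with an interval of -0.32 to 0.88. At this number of mice, differences in the age effect within these intervals remain compatible with the data.

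The other genes of the junction and of the denervation response were counted in 2 lists. Of 25 tested genes for organizers and structural proteins of the synapse, 7 rose and 2 fell with age in wild-type mice, where 18.3% of all genes rose and 17.8% fell. In V338Y mice 10 rose and 2 fell, where 24.4% of all genes rose and 22.5% fell. Their median log2 fold changes were 0.07 and 0.29, against 0.02 and 0.07 over all genes. The ones with the smallest p were components of the synaptic matrix. Lamb2, the laminin beta chain of the synaptic basal lamina, rose 1.68-fold in each genotype (adjusted p = 0.000479 and 0.000197). Lama5, a laminin alpha chain, rose 2.12-fold in wild-type and 2.21-fold in V338Y mice. Agrn, which encodes agrin, rose from 10.2 ± 0.795 to 17.4 ± 1.61 CPM in wild-type mice and from 9.72 ± 1.54 to 21.5 ± 2.90 CPM in V338Y mice. Erbb2, a neuregulin receptor gene, had log2 rises of 0.84 (wild-type) and 0.98 (V338Y), and Utrn, which encodes the synaptic dystrophin relative utrophin, of 0.47 and 0.73. Rapsn, which encodes the scaffold that anchors the receptor, fell in both genotypes, by 0.52 in wild-type (adjusted p = 0.00806) and by 0.54 in V338Y mice (adjusted p = 0.0268). Lrp4, the agrin receptor gene that works with Musk, rose in both, by 0.60 and 0.69. Rapsn and Lrp4 were named after their values were seen.

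Of the list of further denervation-responsive genes, 14 of 29 rose and 3 fell with age in wild-type mice (18.3% and 17.8% of all genes), and 11 of 30 rose and 2 fell in V338Y mice (24.4% and 22.5% of all genes). Their median log2 fold changes were 0.67 and 0.46, against 0.02 and 0.07 over all genes. Hdac4, a deacetylase that links loss of nerve activity to Myog, rose 2.21-fold in wild-type (adjusted p = 0.000588) and 1.83-fold in V338Y mice (adjusted p = 0.00206). Gadd45a, a denervation-induced nuclear protein gene, had a log2 rise of 0.94 in wild-type (adjusted p = 0.000776) and of 1.44 in V338Y mice (adjusted p = 0.0148). For Sln, which encodes the calcium pump regulator sarcolipin, the rises were 2.81 and 3.28 (adjusted p = 0.00076 and 0.017). Ankrd1, a stretch-responsive gene, had rises of 1.38 and 2.23 in the same order (adjusted p = 0.00553 and 0.000469), and Cdkn1a, a cell cycle inhibitor gene, of 1.48 and 2.15 (adjusted p = 0.00857 and 0.00159). Amd1, an enzyme of polyamine synthesis that is known to rise on denervation, went the other way. Its level ranged from 590 to 953 CPM at 3 mo and from 43.7 to 100.3 CPM at 19 mo, a log2 fold change of -3.07 in wild-type and -3.71 in V338Y mice. Its closely related copy Amd2 could take some of its reads. The ubiquitin ligase genes Fbxo32 and Trim63, which rise in wasting muscle, passed the test in neither genotype, with log2 fold changes of 0.76 and 0.61 in wild-type and -0.47 and -0.54 in V338Y mice. Fbxo32 and Trim63 were named after their values were seen in the age comparisons.

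**Figure D4:**
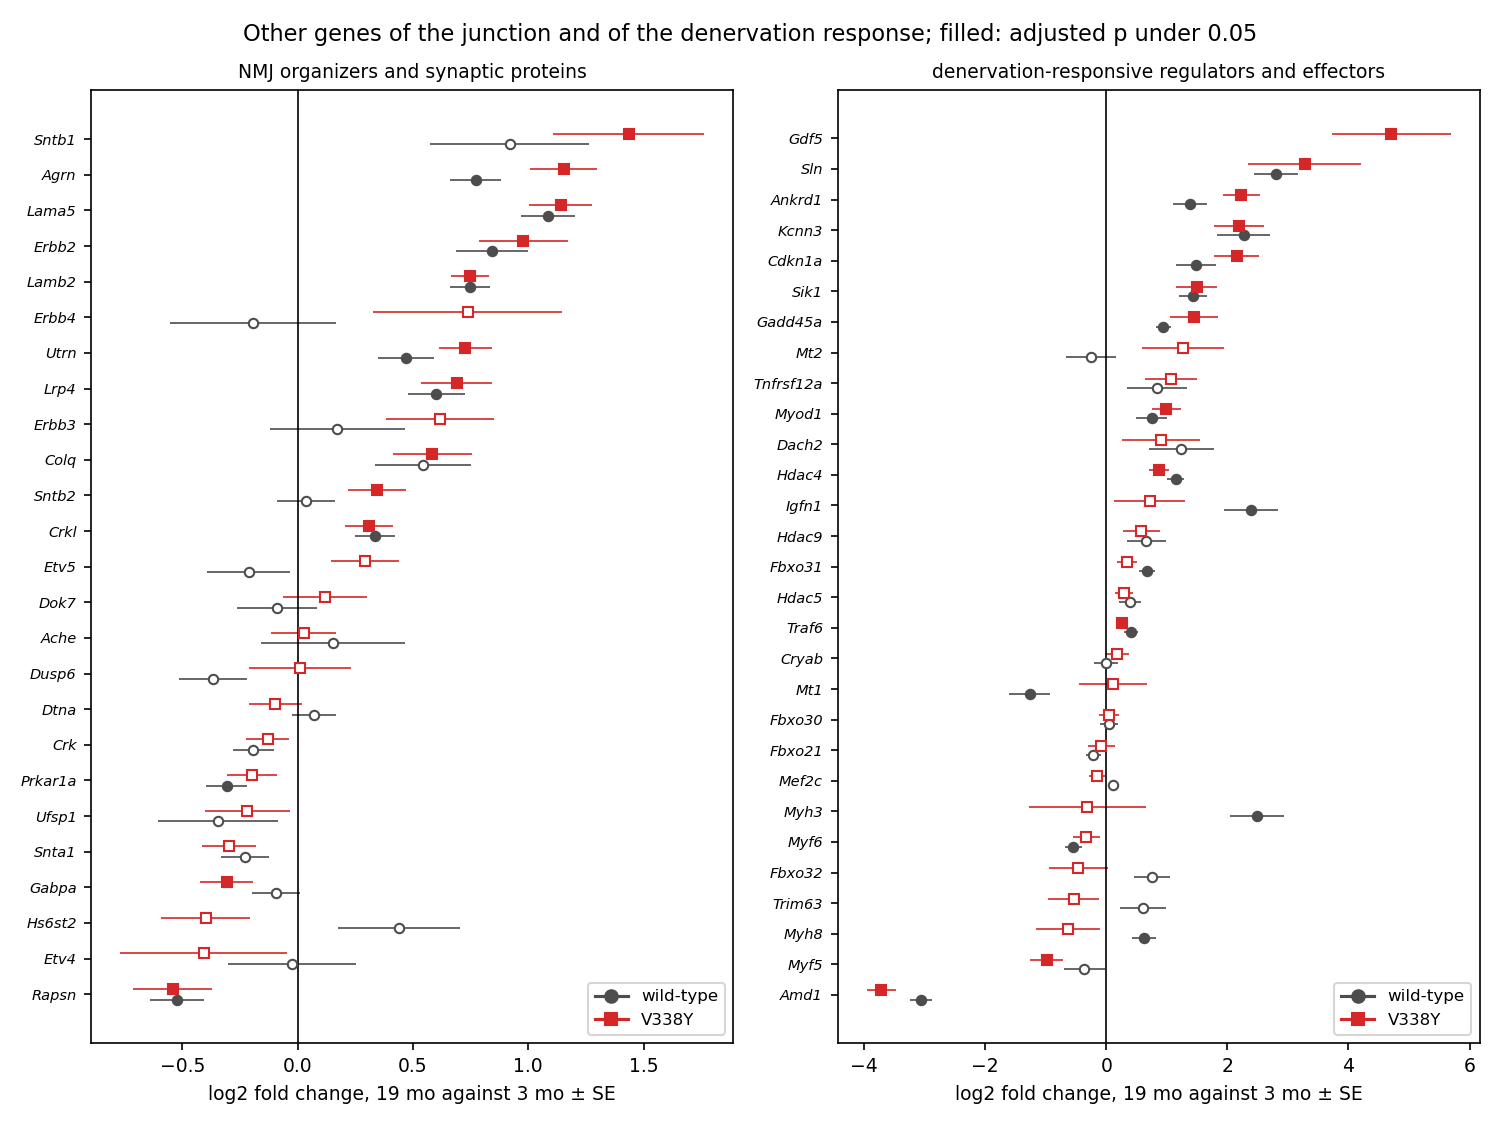
Log2 fold change between 19 mo and 3 mo with its SE (horizontal axes, with a different scale in each panel) for tested genes of both lists in wild-type (circles) and V338Y mice (squares), filled for an adjusted p under 0.05. Laminin genes and Agrn are higher and Rapsn is lower at 19 mo in both genotypes, and Amd1 is the lowest of all, at -3.07 and -3.71.

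Between the genotypes, none of either list differed at 3 mo (25 and 27 tested) or at 19 mo (25 and 30 tested) in edgeR's test. At 3 mo the smallest p was that of Dok7, whose product activates MuSK from inside the fiber. It was at 14.3 to 16.4 CPM in wild-type and at 10.7 to 11.9 CPM in V338Y mice, with no overlap, and its log2 fold change was -0.44 ± 0.08 (unadjusted p = 0.000239, adjusted p = 0.12). Dok7 was named after its values were seen. At 19 mo the smallest p were those of Gdf5, a growth factor gene that counters denervation atrophy, with a log2 fold change of 2.81 ± 0.90 (unadjusted p = 0.0127, adjusted p = 0.525), and Hs6st2, a heparan sulfate sulfotransferase gene, with -0.80 ± 0.31 (unadjusted p = 0.0321, adjusted p = 0.541). Gdf5 was at 0.0622, 0.444 and 0.579 CPM in wild-type mice 2, 4 and 5 and at 1.90, 0.335, 3.11 and 4.37 CPM in V338Y mice 2 to 5. With the block, to which V338Y mouse 3 adds nothing, Gdf5 was the 1 gene of either list called at this age (3.20 ± 0.42, adjusted p = 0.0268).

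Single mice carried much of the spread within groups. Mouse 1 of the 3 mo V338Y group was the highest of its group for all 9 genes, while it was the highest for 29.1% of all 14086 genes kept in the fit of all mice. It exceeded the mean of the other 3 mice 1.61-fold for Chrna1, 2.23-fold for Myog, 1.79-fold for Ncam1 and 1.27-fold for Chrne. Its Chrng level of 1.49 CPM, from 26 counts, was the highest of all 15 mice. Of the denervation list, 11 of 30 genes were highest in this mouse. The embryonic myosin gene Myh3 was at 24.2 CPM in it and at 0.346 to 1.99 CPM in all other 3 mo mice, and the perinatal myosin gene Myh8 was at 27.7 CPM against 4.38 to 6.75 CPM. The leukocyte marker sum of this mouse, 169 CPM, was also the highest at 3 mo. Its Sln level, 1.44 CPM, lay below the 2.07 CPM of V338Y mouse 3.

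Mouse 5 of the 19 mo V338Y group was the highest of its group for 6 of the 9 genes, Chrna1, Chrnd, Musk, Myog, Runx1 and Ncam1, against 29.1% of all 14114 genes kept, and the highest of all 15 mice for 5 of them. It exceeded the mean of the other 3 mice 2.39-fold for Musk, 2.31-fold for Ncam1, 2.24-fold for Runx1, 2.18-fold for Chrnd and 1.86-fold for Chrna1. Chrnb1 and Chrne were at 0.900 and 0.831 times that mean. Of the denervation list, 18 of 30 genes were highest in it. The same number, 18 of 30, was highest in 19 mo wild-type mouse 5 of its group of 3. That wild-type mouse was the highest for 1 of the 9 genes and for 37.4% of all genes kept. Of the synapse list, 8 of 26 genes (30.8%) were highest in V338Y mouse 5. Gadd45a was at 75.1 CPM and Sln at 28.2 CPM in it, against 15.3 to 48.0 CPM and 0.671 to 9.82 CPM in the other 3 mice of the group. Dach2, a corepressor gene of the denervation response, was at 18.1 CPM in this mouse and at 14.9 CPM in 19 mo wild-type mouse 5, against 1.91 to 5.05 CPM in the rest. This mouse also had the highest Schwann cell marker sum, 138 CPM, and the highest leukocyte marker sum, 690 CPM. The 5 neutrophil genes of that list made up 516 CPM of it, against 3.81 to 24.2 CPM in the other 3 mice of the group, while the other 16 leukocyte markers summed to 173.5 CPM, the lowest of the group (227 to 256 CPM in the other 3). The slow myosin gene Myh7 stood at 1210 CPM in it and at 0.604 to 28.25 CPM in the other 3 mice of the group. In 19 mo wild-type mice 2, 4 and 5 Myh7 stood at 9.95, 180.7 and 319.6 CPM. The myosin gene Myh2 was at 4880 CPM in V338Y mouse 5 and at 4246 CPM in wild-type mouse 5, against 243.4 to 876 CPM in the rest at 19 mo. The part of these other cell types in the values of V338Y mouse 5 was not tested.

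At the other end, V338Y mouse 3 at 19 mo was the lowest of its group for 8 of the 9 genes, all but Chrne, of which it had the most. Its share of lowest values over all genes was not counted, so this number has no background beside it. Mouse 4 of the 3 mo wild-type group was the highest for 6, against 26.3% of all 14093 genes kept. For Chrng, which is among the 6, this rests on 1 count. The myosin genes, Gadd45a, Dach2, Sln and the cell type sums were described in these mice after their values were seen. Without both 3 mo V338Y mouse 1 and 19 mo V338Y mouse 5, an alternative chosen after the data were seen, 5 of the 9 genes were still called between ages in V338Y mice. Musk was then among them (-1.09, adjusted p = 0.00131) and Chrne was not (-0.26, adjusted p = 0.245).

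**Figure D5:**
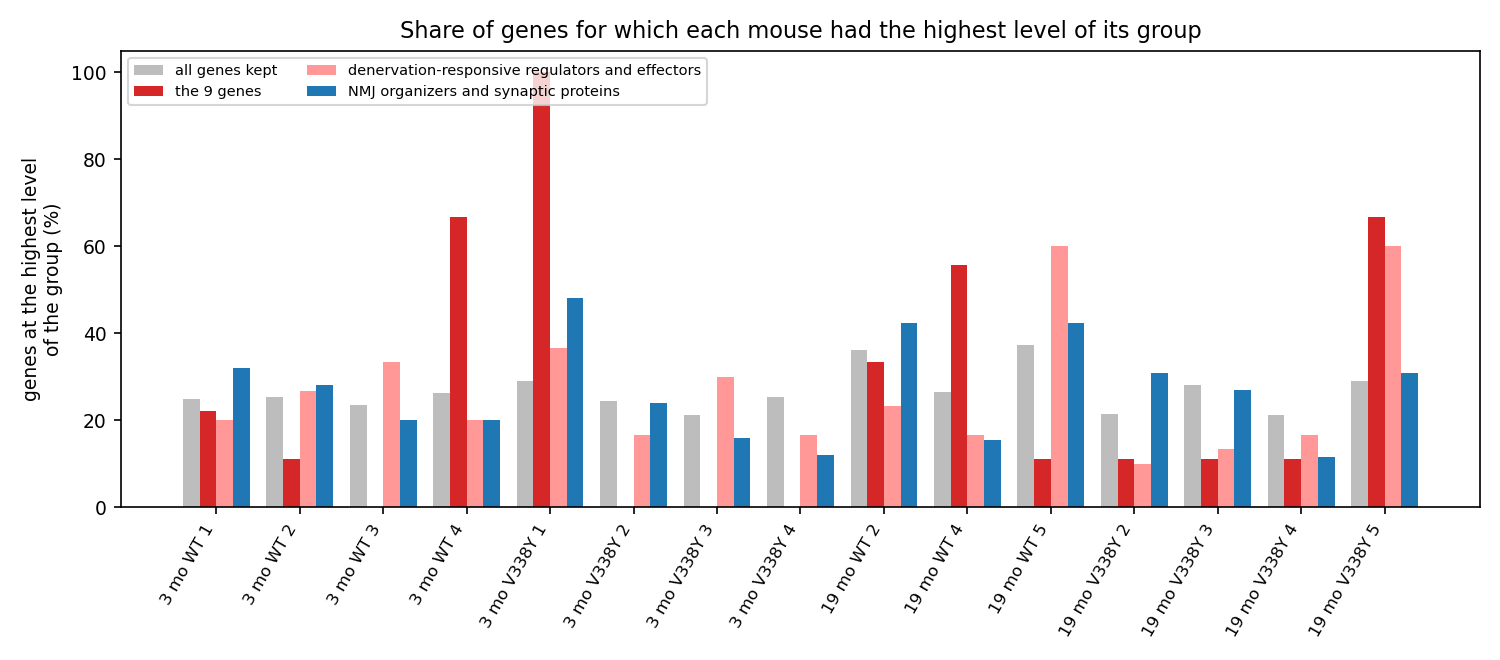
Percentage of genes (vertical axis) for which each of the 15 mice had the highest level of its group, for all genes kept in the fit of all mice, the 9 genes, the denervation list and the synapse list. Mouse 1 of the 3 mo V338Y group is the highest for all of the 9 genes and 29.1% over all genes, and mouse 5 of the 19 mo V338Y group reaches 66.7% and 60% for the 9 genes and the denervation list. Wild-type mouse 5 at 19 mo also reaches 60% for the denervation list, with 11.1% for the 9 genes.

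Within groups, after each group mean was subtracted from log2(CPM + 0.5), the 36 pairs of these genes had a median Pearson r of 0.50 over 15 mice, and 18 pairs lay above 0.5. Without the mice that stand apart at 3 and 19 mo the median was 0.34 and 7 pairs lay above 0.5. Musk and Runx1 were the closest pair over all mice, with r = 0.83, and had r = 0.62 without those mice. Chrnd and Chrng had r = 0.76 and 0.80, whereas Musk and Ncam1 went from 0.75 to 0.03. Chrne had a negative r with 6 of the other 8 genes, down to -0.36 with Runx1. The values share libraries and their scaling, so that r is a description here. Over 12817 genes of at least 1 CPM, the gene most like Chrne within groups was Ccdc134 (r = 0.98), that most like Musk was Atp13a3 (0.96), that most like Chrnb1 was Dhrs3 (0.92) and that most like Runx1 was Sbno2 (0.91). With the group means kept, Runx1 was most like Actn1 (0.98), Chrnb1 most like Ctnna1 (0.96) and Myog most like Tyrobp (0.92). For Ncam1, the first gene within groups was Spp1 (0.90), which fell to 0.69 without these mice.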

How the data were processed

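RNA-seq of muscle from 15 mice was analysed. Per the study's methods, total RNA was ribosome-depleted, made into libraries with a stranded kit, sequenced as single-end reads and counted with RSEM against Ensembl annotation. Submitters' processing notes list CASAVA 1.8, bcl2fastq 1.8.4, STAR 2.4.2a and build GRCm38. Whether counting used strand is not given in the sources used here. The deposited values are the authors' expected counts per Ensembl identifier, all of them whole numbers, so nothing was rounded. Of 39179 identifiers 37607 had a symbol. No pair of files was identical (105 pairs).

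Positions came from a GRCm38 annotation. A gene was kept if either group compared had 50% or more of its mice at 10 counts or above. Tests were made over all remaining genes with edgeR 4.0.16 (glmQLFit, glmQLFTest, TMM, R 4.3.3), p-values were adjusted by Benjamini-Hochberg and called under 0.05. DESeq2 1.42.0, other scalings (RLE, upper-quartile factors, totals without the 10 most counted genes), other filters, a fit of all mice, a replicate block and leaving out each mouse were alternatives. The code was tested on simulated data. Genes under the filter were tested by an exact permutation of mice on log2(CPM + 0.5).

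The text names the 9 genes, from each marker or pathway list the genes with the smallest p in an age comparison (up to 4) or at 19 mo (up to 2), the 3 genes most correlated with each of the 9, and Mrps5, Xist and Ddx3y. The members and the lists were chosen with earlier results of these data known.

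Mouse numbers come from the labels, which do not say what they share. Deviations of same-numbered mice from their group means correlated at 0.132 to 0.400 at 19 mo (3 pairs). Differently numbered mice of that comparison ranged from -0.407 to 0.467, the highest r being that of wild-type mouse 2 with V338Y mouse 3. Of the 3 wild-type mice, 2 correlated best with the V338Y mouse of their own number. The block is given beside that comparison, but these values do not establish that the numbers pair the mice. Same-numbered mice correlated at -0.162 to 0.141 at 3 mo (4 pairs), and 0 wild-type mice correlated best with their own number. Pairing was not established at 3 mo either. Promoter windows are from RefSeq (7 of 9 genes matched). Some list genes that count in the list totals are not reported here by name.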

Additional observations from a re-analysis of the deposited data

Results flagged for a closer look

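In 27 sets of 4 mice (9 genes in each of 3 groups), the gap between the highest or lowest mouse and its neighbour, divided by the range, exceeded Dixon's critical value of 0.829 in 3. Chance alone passes it in about 1 of 20 sets. Mouse 1 of the 3 mo V338Y group stood apart for Chrna1 (ratio 0.845, 12.9 CPM) and for Chrng (ratio 0.945, 1.49 CPM). Mouse 4 of the 3 mo wild-type group stood apart for Chrng (ratio 1.0), where its 0.0907 CPM is 1 count and all others had none. Chrng in V338Y mouse 1 rests on 26 counts.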

How the results depend on the processing

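The number of the 9 genes called stayed at 0 in both genotype comparisons and in the interaction under every alternative run, and between 4 and 7 in each age comparison. Of 777 recomputed fold changes of these genes, 723 kept direction and side of the threshold, 17 lost and 13 gained a call, and 24 turned sign. Causes were not tested. At 3 mo, Myog was -0.005 with DESeq2 and -0.001 with the replicate block, and leaving out 1 mouse gave -0.40 to 0.29 for Myog, -0.084 to 0.113 for Chrne and -0.065 to 0.142 for Musk. At 19 mo, Chrnb1 was -0.004 with no filter and -0.007 in the fit of all 15 mice. Leaving out 1 mouse at 19 mo gave -0.10 to 0.18 for Chrnb1, -0.007 to 0.867 for Chrnd, -0.46 to 0.39 for Chrne and -0.28 to 0.34 for Musk. Chrne in wild-type mice with age gave -0.791 to 0.055. In the interaction, leaving out 1 mouse gave -0.02 to 0.56 for Chrna1, -0.50 to 0.35 for Chrne, -4.46 to 0.69 for Chrng, -0.34 to 0.25 for Musk and -0.001 to 0.686 for Ncam1. Without both V338Y mice that stand apart, the Musk interaction was -0.24.

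The replicate block gave 6 of the 9 genes in each age comparison. In wild-type mice it added Chrna1 (0.69, adjusted p = 0.0481), and in V338Y mice Musk (-1.11, adjusted p = 0.00133) and Chrng (3.997, adjusted p = 0.0184), while Chrne was lost (-0.27). A mouse whose number occurs at 1 age only adds nothing to these estimates. Such were wild-type mice 1 and 3 at 3 mo and 5 at 19 mo, and V338Y mice 1 at 3 mo and 5 at 19 mo. Without both of these V338Y mice and with no block, Musk was -1.09 and Chrne -0.26, so the block is not separate support. The 3 mo V338Y mice left held 1 count of Chrng in all. Same-numbered mice correlated at 0.005 to 0.016 in wild-type and -0.136 to 0.015 in V338Y mice across age, and 0 mice correlated best with their own number in these comparisons and at 3 mo. Over all genes, the block gave 110 calls in place of 6 at 19 mo, 2229 in place of 4940 with age in wild-type mice and 117 in place of 0 in the interaction. DESeq2 called 66 genes at 3 mo, 62 at 19 mo and 26 in the interaction, and fits with no filter 33, 14 and 5. Leaving out 1 mouse gave 3 to 14 genes at 3 mo and 2 to 7 at 19 mo. The mean log2 ratio of Chrng to Chrne in 3 mo wild-type mice went from -7.24 to -6.39 with 1 count added in place of 0.5. Other scalings moved the median of all genes by at most 0.0283. Chrnd with 5 to 64 counts and Chrng with 0 to 26 are limited by depth.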

Other observations

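Other marker lists moved with age as well, with the sex-linked transcripts named above moving alongside. Mast cell markers rose in wild-type mice for 6 of 6 tested genes and in V338Y mice for 4 of 5, with sums of 7.53 to 16.3 CPM at 3 mo and 17.2 to 46.1 CPM at 19 mo. Of 12 muscle fiber markers, 3 rose and 3 fell in wild-type mice, and 5 fell in V338Y mice. The slow fiber gene Myh7 was among those that rose, from 2.68 ± 1.99 CPM (SD, n = 4) to 170.1 ± 155 CPM (n = 3) in wild-type mice, and the fast troponin gene Tnni2 fell in both genotypes, by 0.82 on the log2 scale in wild-type and by 1.25 in V338Y mice. Of 7 adipocyte markers, 2 fell in wild-type and 2 rose in V338Y mice. Tendon markers rose for 1 and 2 of 7. Of 7 fibroblast markers, 1 rose and 2 fell in wild-type and 2 fell in V338Y mice. Of 8 satellite cell markers, 3 rose in wild-type mice, and 1 rose and 1 fell in V338Y mice. None of these lists had a called gene between the genotypes at either age in edgeR's test. At 3 mo the adipocyte gene Plin1 was called with the block (-1.19) and the slow troponin gene Tnni1 by DESeq2 (2.54), with no filter (2.53) and without V338Y mouse 4 (2.85).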
